A study of Mus musculus with 6 samples.

Results

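The 9 genes described here handle iron in the cell. They are the ferritin subunits Ftl1 and Fth1, the exporter Slc40a1 (ferroportin), the divalent metal transporters Slc11a1 and Slc11a2, the heme-degrading enzyme Hmox1, the transferrin receptor Tfrc, its ligand Trf (transferrin) and the RNA-binding regulator Ireb2. They were picked by symbol from the table of raw read counts, which lists 55573 genes. All 9 were found there. The study asked how young cells added to the adult mouse olfactory bulb fare when their excitability is lowered by a potassium channel. Lentivirus was injected into the rostral migratory stream of male C57BL/6 mice aged 3 months, and cells were taken 9 days later. Kv1.2 libraries came from mice given a virus carrying the Kv1.2 channel together with Twitch-2B, a fluorescent calcium sensor, Kir2.1 libraries from mice given the Kir2.1 channel together with Twitch-2B, and control libraries from mice given Twitch-2B without a channel. All 3 groups therefore carried the sensor and a virus, in the control one that also encoded a nuclear mCherry. There were 2 libraries per group, each pooled from the bulbs of 2 mice. The bulbs were dissociated, cleared on Percoll and sorted for Twitch-2B fluorescence, and the RNA of sorted cells was amplified as full-length cDNA.

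Iron enters most cells bound to transferrin, which the transferrin receptor carries into endosomes, and SLC11A2 (DMT1) then moves the metal into the cytosol. Iron that is not used is stored inside the shell formed by ferritin heavy and light chains, and ferroportin is the exporter that carries it out of the cell. When iron is scarce, the iron regulatory proteins, one of which is the product of Ireb2, bind a short hairpin called the iron-responsive element: near the 5′ end of an mRNA the element lets them block translation, and in the 3′ untranslated region of the Tfrc mRNA it protects the transcript from decay. In the brain, microglia and oligodendrocytes are rich in ferritin, and oligodendrocytes are a main source of transferrin.

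Because this hairpin links several of the 9 genes, their transcripts were searched for it in the GENCODE M21 annotation of GRCm38. The search looked on the transcript strand for the loop CAGTG followed by A, C or T, with 5 paired bases on each side of it, then an unpaired C, and at least 2 of 3 further pairs below that C. There were 7 matches in 4 genes, namely 1 each in Ftl1, Fth1 and Slc40a1 and 4 in Tfrc. By the same rule 64 of 21901 protein-coding genes (0.292%) held a match. Slc11a1, Slc11a2, Hmox1, Trf and Ireb2 held none, which says only that this pattern is not in their annotated transcripts. In the 4 genes with a match, too, an element that departs from the pattern would be missed. The elements are shown as DNA, 5′ to 3′ along the mRNA, with the unpaired C and the loop in capitals.
Ftl1: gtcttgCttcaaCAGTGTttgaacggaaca
Fth1: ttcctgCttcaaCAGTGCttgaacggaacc
Slc40a1: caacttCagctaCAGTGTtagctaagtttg
Tfrc site 1: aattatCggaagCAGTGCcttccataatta
Tfrc site 2: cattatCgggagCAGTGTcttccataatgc
Tfrc site 3: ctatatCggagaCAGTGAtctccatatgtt
Tfrc site 4: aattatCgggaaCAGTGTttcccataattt

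The sites of Ftl1 (chr7:45459778-45459807, minus strand), Fth1 (chr19:9982732-9982761, plus strand) and Slc40a1 (chr1:45925464-45925493, minus strand) lay in the 5′ untranslated region. Their loops began at bases 90, 99 and 102 of transcripts of 968, 929 and 3370 bases, in that order. All 4 sites of Tfrc lay in its 3′ untranslated region on the plus strand, at chr16:32631219-32631248, chr16:32631598-32631627, chr16:32631663-32631692 and chr16:32631710-32631739. Ferritin and ferroportin, which lower free iron, thus carry the element ahead of the coding sequence, and the uptake receptor carries it behind. RNA counts do not measure the block of translation that the 5′ element allows.

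**Figure D1:**
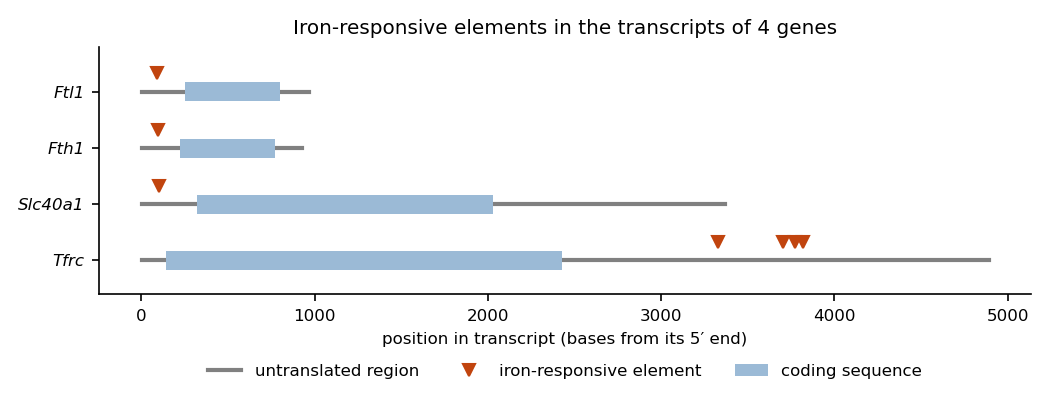
Positions of the iron-responsive elements (triangles) along the annotated transcripts of Ftl1, Fth1, Slc40a1 and Tfrc, in bases from the 5′ end, with the coding sequence as a box and the untranslated regions as a line. By the search pattern, Ftl1, Fth1 and Slc40a1 have 1 match each before the coding sequence, and Tfrc has 4 behind it. Elements that depart from the pattern are not shown.

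The libraries held 8871595 to 13632970 counts. Levels are given as CPM, the usual count rate, here relative to the TMM-scaled library size, and 12275 genes that reached 1 CPM in at least 2 of the 6 libraries were tested with edgeR's quasi-likelihood test. The sort was meant to hold young neurons, but the RNA was rich in microglial transcripts: all 16 microglia markers reached 1 CPM in every library, and together they summed to 137402 and 125832 CPM in the Kv1.2 libraries and 58939 and 118407 CPM in the Kir2.1 libraries, against 73857 and 9527 CPM in the control libraries. C1qb and Ctss were among the most abundant of that list. The 14 markers of neuroblasts and neurons summed to 47.3 and 117 CPM (Kv1.2) and 88.4 and 148 CPM (Kir2.1), against 1009.7 and 2468 CPM in control. By mean CPM over the 6 libraries, Stmn1, Snap25 and Map2 were the most abundant of them. Stmn1 had 42.7 and 57.8 CPM (Kv1.2) and 59.3 and 36.7 CPM (Kir2.1), against 23.8 and 945 CPM in control. Its higher level in control thus rests on control replicate 2. In Kv1.2 replicate 1, 9 of these 14 markers were at 0, in Kv1.2 replicate 2, 5 were, in the Kir2.1 libraries 3 and 7, and in the control libraries 2 and 0. Dcx, the classical marker of migrating neuroblasts, had 0 and 0.24 CPM (Kv1.2) and 0 in both Kir2.1 libraries, against 82.1 and 18.8 CPM in control. Mitochondrially encoded genes took 1.48% to 1.89% of the counts in the channel libraries and 10.9% and 22.9% in the control libraries. The 8 astrocyte markers summed to 364 and 229.7 CPM (Kv1.2) and 294 and 356 CPM (Kir2.1), against 950.3 and 3114 CPM in control. Most of the channel sums was Slc1a3, with 341 and 171 CPM (Kv1.2) and 290 and 283 CPM (Kir2.1), against 337 and 433 CPM in control. Of the 8 markers, 3 and 3 reached 1 CPM in Kv1.2 and 2 and 3 in Kir2.1, against 6 and 8 in control. Control replicate 2 stood apart, with the fewest microglial and the most neuronal, astrocyte and mitochondrial transcripts. The channel genes did not check the labels: Kcna2, which encodes Kv1.2, had 24 and 5 counts in the Kv1.2 libraries and 3 and 451 in the control libraries, and Kcnj2, which encodes Kir2.1, had 64 and 312 counts in the Kir2.1 libraries and 221 and 1 in the Kv1.2 libraries, against 87 and 89 in the control libraries. Per the methods, the viral Kv1.2 was cloned from a human and the viral Kir2.1 from a mouse cDNA, and how their reads were counted is unknown, so groups are named as labelled throughout.

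**Figure D2:**
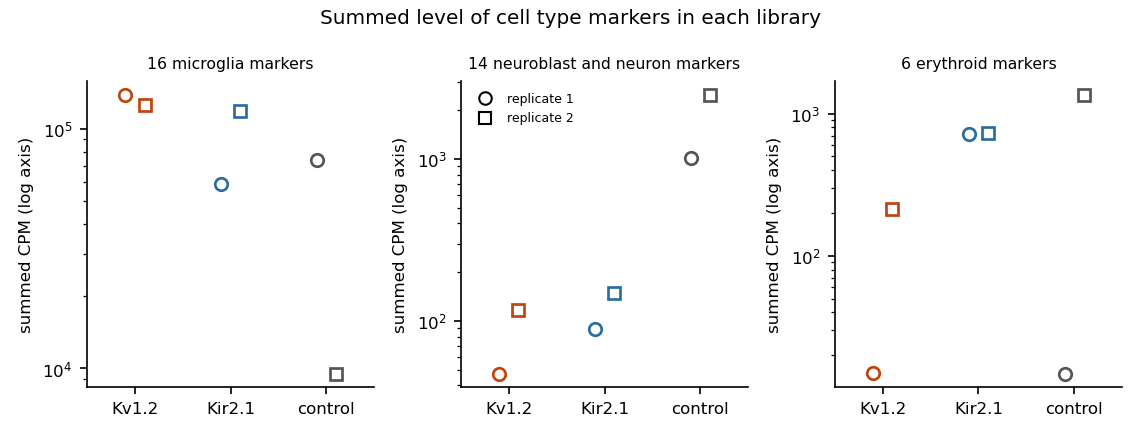
Summed CPM of 16 microglia, 14 neuroblast and neuron and 6 erythroid markers in each library (log axis; circles are replicate 1, squares replicate 2). Control replicate 2 has the lowest microglia sum (9527 CPM), both control libraries lie above all channel libraries in neuronal markers, and erythroid markers differ up to the 1346 CPM of control replicate 2.

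Iron storage genes were among the most abundant transcripts of every library. Ftl1, the ferritin light chain (ENSMUSG00000050708, GRCm38 chr7:45457944-45459884, minus strand), ranked between 8 and 22 of all genes by count, and Fth1, the heavy chain with the iron-oxidising centre (ENSMUSG00000024661, chr19:9980598-9985098, plus strand), between 17 and 31. Together they took 1.66% and 1.43% of all counts in the Kv1.2 libraries and 1.13% and 0.965% in the Kir2.1 libraries, against 1.2% and 1.15% in control. Ferritin RNA was therefore plentiful in all 3 groups, and the highest of these shares was under 2 times the lowest. Ferritin protein was not measured.

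Ftl1 had 12489 and 10202 CPM in the Kv1.2 libraries, against 8780.2 and 5719 CPM in the control libraries. Its 5951 and 7313 CPM in the Kir2.1 libraries lay within the control range. Both Kv1.2 values were above both control values, and the log2 fold change was 0.63 (SE 0.52), with an adjusted p of 0.696 in edgeR's quasi-likelihood test. For Kir2.1 it was -0.14 (SE 0.52, edgeR adjusted p = 0.969). Without control replicate 2 the Kv1.2 change was 0.28, and without control replicate 1 it was 0.86. Microglia markers were also highest in the Kv1.2 libraries, and per 1000 CPM of these markers Ftl1 stood at 90.9 and 81.1 in the Kv1.2 libraries and 101 and 61.8 in the Kir2.1 libraries, against 119 and 600.3 in control, so on that scale both channel groups lay below control. Their part in the Ftl1 level was not tested. In bulk samples, more cells of a type and more RNA per cell cannot be told apart. Fth1 had 5556 and 4679.5 CPM in the Kv1.2 libraries and 3059 and 2543 CPM in the Kir2.1 libraries, against 3045 and 6942 CPM in the control libraries. The 2 control values bracketed both Kv1.2 values, and the log2 fold changes were 0.02 (SE 0.58, edgeR adjusted p = 0.999) for Kv1.2 and -0.85 (SE 0.58, edgeR adjusted p = 0.662) for Kir2.1. Set directly against Kv1.2, both chains were lower in both Kir2.1 libraries, by a log2 fold change of -0.77 (SE 0.52) for Ftl1 and -0.86 (SE 0.58) for Fth1. Neither passed the threshold in edgeR's test, with adjusted p of 0.819 and 0.817.

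The balance of the chains differed most between the control libraries themselves. Within a library, where scaling plays no part, the ratio of Fth1 to Ftl1 counts was 0.445 and 0.459 in the Kv1.2 libraries and 0.514 and 0.348 in the Kir2.1 libraries, against 0.347 and 1.21 in the control libraries. The 4 channel libraries thus lay at or above control replicate 1 and all lay below control replicate 2, the library with the most neuronal and astrocyte and the fewest microglial transcripts. The ratio leaves out the counts of Gm10252, a locus overlapping Ftl1 that is described below. They were 46.6% to 48.5% of the Ftl1 count in every library, so the level of each ratio is uncertain by that share. On the log2 scale the ratio averaged -1.19 ± 0.24 (SD, n = 4) in the channel libraries and -0.62 ± 1.28 (SD, n = 2) in the control libraries. The difference of -0.57 gave p = 0.4 in a two-sided exact permutation test, in which 15 arrangements allow no p under 0.0667. It was 0.33 without control replicate 2, so its direction rested on that library, and the part of its neuronal, astrocyte and microglial transcripts in the ratio was not tested.

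Some loci share sequence or position with the ferritin genes, and their counts followed the parent genes closely. The locus Gm10252 (ENSMUSG00000110350, chr7:45459469-45460300, plus strand) lies opposite the 5′ end of Ftl1, overlaps it by 416 bases and spans its iron-responsive element. It took 75919 and 58656 counts in the Kv1.2 libraries and 30968 and 38177 in the Kir2.1 libraries, against 41647 and 22837 in control, which was 46.6% to 48.5% of the Ftl1 count in every library. The library kits do not mark strand, so reads of Ftl1 and of its antisense partner cannot be told apart, and Ftl1 counts are uncertain by that share. With the counts of Gm10252 added to Ftl1, an alternative chosen after seeing the data, the log2 fold changes were 0.64 (Kv1.2) and -0.14 (Kir2.1). The 3 light-chain pseudogenes Ftl1-ps1, Ftl1-ps2 and Ftl2-ps, near-identical copies between which reads can be split, summed to 2.65% to 3.12% of the Ftl1 count. The 2 heavy-chain pseudogenes, Fth-ps2 (at 0 in all 6 libraries) and Fth-ps3, summed to 0.0213% to 0.0527% of the Fth1 count.

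**Figure D3:**
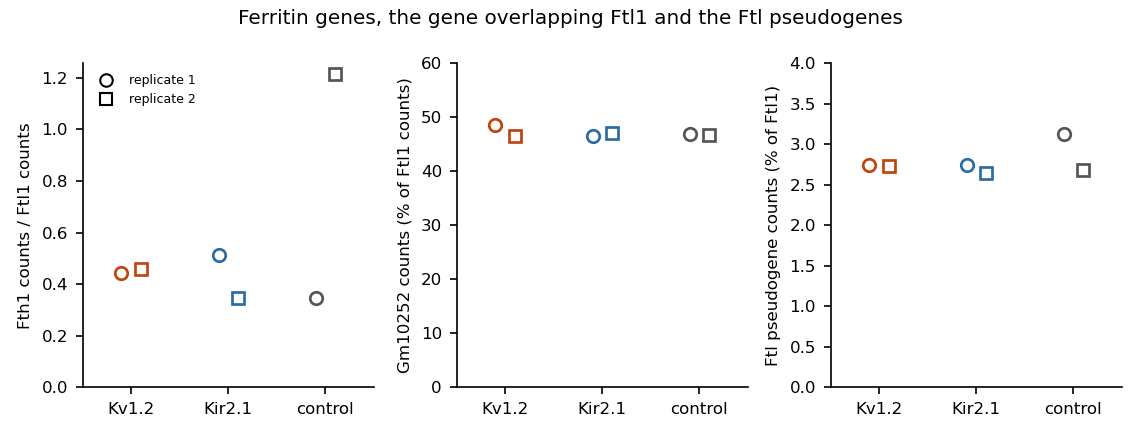
Fth1 counts over Ftl1 counts, Gm10252 counts as a percent of Ftl1 counts, and light-chain pseudogene counts as a percent of Ftl1 counts, per library (circles are replicate 1, squares replicate 2; axes start at 0). The chain ratio of control replicate 2 (1.21) lies far above the other 5 libraries, while Gm10252 stays between 46.6% and 48.5% of Ftl1 in all 6.

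RNA of the iron exporter was higher in all 4 channel libraries, while its protein was not measured. Slc40a1 (ENSMUSG00000025993, chr1:45908068-45926523, minus strand) encodes ferroportin, the exporter of iron from mammalian cells, which macrophages use to release recycled iron. It had 187 and 125 CPM in the Kv1.2 libraries and 177 and 229.5 CPM in the Kir2.1 libraries, against 63.3 and 20.9 CPM in the control libraries. Channel and control libraries did not overlap, which held for 8.53% of all genes in that direction. The control libraries differed 3.02-fold from each other, more than the replicates of the channel groups (1.5-fold and 1.29-fold). The log2 fold change was 1.88 (SE 0.79) for Kv1.2 and 2.27 (SE 0.80) for Kir2.1. With p before adjustment of 0.0494 and 0.0254, edgeR's quasi-likelihood test over all genes gave adjusted p of 0.414 and 0.521, so neither passed. Without control replicate 2 the log2 fold changes were 1.21 and 1.62, and without control replicate 1 they were 2.76 and 3.17. Per 1000 CPM of the summed microglia markers, Slc40a1 stood at 1.36 and 0.989 in the Kv1.2 libraries and 3.01 and 1.94 in the Kir2.1 libraries, against 0.857 and 2.20 in control. On that scale the groups overlapped. The part of the microglial transcripts in the Slc40a1 levels was not tested.

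Among the uptake genes, the receptor lay below control and its ligand above control in both Kir2.1 libraries. Tfrc (ENSMUSG00000022797, chr16:32608920-32632794, plus strand), the receptor for iron-loaded transferrin, is abundant in dividing cells and is also carried by neurons. It had 0 and 0 counts in the Kv1.2 libraries and 1 and 3 in the Kir2.1 libraries, against 148 and 78 in the control libraries. That is 14.6 and 9.12 CPM in control and under 1 CPM in every channel library, so Tfrc passed the count minimum only through the control libraries. With 3 counts taken as the floor for a group at 0, it was at least 100-fold lower in Kv1.2, and with 4 counts against 226 it was 67.4-fold lower in Kir2.1 (95% counting interval 26.0 to 249.5). These limits cover counting error only. The fitted log2 changes of -10.03 (SE 3.01) for Kv1.2 and -5.97 (SE 2.55) for Kir2.1 depend on the prior count. With unadjusted p of 0.0154 and 0.0572, their adjusted p in edgeR's quasi-likelihood test was 0.394 and 0.528. DESeq2 and edgeR's likelihood ratio test, which called 12.0% and 5.89% of all genes in that comparison, called Tfrc lower in Kv1.2, with adjusted p of 0.00991 and 0.0244, and in the channel groups together, with 0.00841 and 0.00141, where the quasi-likelihood test gave 0.201. Neither called it in Kir2.1 (adjusted p of 0.126 and 0.148). The control libraries also had the higher sums of neuronal and astrocyte markers and the larger share of mitochondrial RNA given above, and more of the 10 oligodendrocyte markers (30.8 to 111 CPM in the channel libraries, against 248 and 699.96 CPM in control), and their part in the Tfrc level was not tested.

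Trf (ENSMUSG00000032554, chr9:103204001-103230444, minus strand) encodes the iron carrier itself. It had 56.9 and 54.0 CPM in the Kv1.2 libraries and 114 and 119 CPM in the Kir2.1 libraries, against 62.3 and 18.2 CPM in the control libraries. Both Kir2.1 values were above all 4 others, and the Kv1.2 values lay within the control range. The log2 fold change was 1.53 (SE 0.92) for Kir2.1 and 0.45 (SE 0.90) for Kv1.2. Neither passed in edgeR's quasi-likelihood test, with adjusted p of 0.612 and 0.937. Kir2.1 set against Kv1.2 gave 1.08 (SE 0.91, edgeR adjusted p = 0.905). The 10 oligodendrocyte markers, cells known for transferrin, summed to 111 and 30.8 CPM in the Kir2.1 libraries and 33.5 and 58.4 CPM in the Kv1.2 libraries, against 248 and 699.96 CPM in control, and their part in the Trf level was not tested. Per 1000 CPM of microglia markers, Trf stood at 1.93 and 1.01 in the Kir2.1 libraries and 0.414 and 0.429 in the Kv1.2 libraries, against 0.843 and 1.91 in control, so Kir2.1 and control overlapped on that scale. The Kir2.1 change was 0.84 without control replicate 2 and 2.56 without control replicate 1. The annotated neighbour Gm20425, which overlaps Trf on the same strand by 26307 bases, was at 0 in all 6 libraries.

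RNA of the endolysosomal transporter of macrophages was higher in all 4 channel libraries, while its protein and transport were not measured. Slc11a1 (NRAMP1; ENSMUSG00000026177, chr1:74375195-74386062, plus strand) moves divalent metals across the phagosome membrane. It had 87.5 and 89.6 CPM in the Kv1.2 libraries and 102 and 67.6 CPM in the Kir2.1 libraries, against 25.6 and 2.1 CPM in the control libraries. The lowest channel library was above both control libraries (8.53% of all genes), which differed 12.2-fold from each other. The log2 fold change was 2.67 (SE 1.27) for Kv1.2 and 2.62 (SE 1.27) for Kir2.1, and edgeR's quasi-likelihood test gave adjusted p of 0.442 and 0.546. Without control replicate 2, whose microglia sum was the lowest, the changes were 1.70 and 1.67, and without control replicate 1 they were 5.26 and 5.21. Per 1000 CPM of microglia markers, Slc11a1 stood at 0.637 and 0.712 in the Kv1.2 libraries and 1.74 and 0.571 in the Kir2.1 libraries, against 0.347 and 0.221 in control. On this scale, which was chosen after the values were seen and carries no test, the channel libraries still lay above the control libraries. Kir2.1 replicate 1, the highest, was also the library with the most transcripts of border-associated macrophages (1779 CPM over 8 markers, against 33.1 to 167 CPM in the others), and their part in it was not tested.

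Slc11a2 (DMT1; ENSMUSG00000023030, chr15:100387898-100425072, minus strand), which moves iron out of endosomes, was scarce and uneven. It had 21.9 and 9.72 CPM in the Kv1.2 libraries and 0.54 and 15.9 CPM in the Kir2.1 libraries, against 0.20 and 9.0 CPM in the control libraries. Replicates of one group differed up to 45.5-fold, and the log2 fold changes of 1.75 (SE 2.53) for Kv1.2 and 0.82 (SE 2.48) for Kir2.1 were smaller than their errors. The gene Gm5475, which overlaps it on the opposite strand, had at most 1 count in any library.

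Hmox1 (heme oxygenase 1; ENSMUSG00000005413, chr8:75093621-75100589, plus strand) frees iron from heme and is known as a stress-induced gene in macrophages. It had 14.6 and 8.10 CPM in the Kv1.2 libraries and 0 and 16.3 CPM in the Kir2.1 libraries, against 0.10 and 2.57 CPM in the control libraries. Both Kv1.2 values lay above control, while the Kir2.1 libraries spanned the control range, from 0 to 181 counts. The log2 fold changes were 3.05 (SE 3.11) for Kv1.2 and 2.58 (SE 3.05) for Kir2.1, with adjusted p of 0.783 and 0.853 in edgeR's quasi-likelihood test. The 6 erythroid markers, transcripts of red blood cells, summed to 14.9 and 214 CPM in Kv1.2 and 715 and 736 CPM in Kir2.1, against 14.8 and 1346 CPM in control, and their part in the Hmox1 level was not tested.

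Ireb2 (IRP2; ENSMUSG00000032293, chr9:54863789-54912530, plus strand) encodes one of the proteins that bind the hairpins shown above. It had 0 and 59.7 CPM in the Kv1.2 libraries and 49.2 and 38.5 CPM in the Kir2.1 libraries, against 57.0 and 22.7 CPM in the control libraries. A single library, Kv1.2 replicate 1, was at 0 counts, where the floor of 3 counts is 0.239 CPM, while its partner held 737 counts, the most of all. The log2 fold changes of -0.43 (SE 2.26) and 0.13 (SE 2.25) did not differ from 0 beyond their errors.

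Levels between genes were compared per length, in the TPM values deposited by the authors. By the median over the 6 libraries the order was Ftl1 (11256 TPM), Fth1 (2218), Slc11a1 (35.6), Trf (30.03), Slc40a1 (28.1), Ireb2 (8.91), Hmox1 (4.80), Slc11a2 (2.21) and Tfrc (0.0580). In TPM the ferritin chains did not overlap: Ftl1 ranged from 5671 to 14937 TPM and Fth1 from 1338 to 2659 TPM. In control replicate 2, however, Fth1 had 59381 counts and 2659 TPM, against 48915 counts and 5671 TPM for Ftl1. The gap between the chains therefore depends on the gene lengths behind the TPM. The annotated transcripts shown above have 929 (Fth1) and 968 (Ftl1) bases. The Ftl1 counts also leave out those of the overlapping Gm10252 (22837 in control replicate 2), so which chain had more reads there is not settled. Fth1 in turn lay above all values of the other 7 genes. Among these 7, each pair of neighbours in that order overlapped in range over the libraries, for example Slc11a1 (0.755 to 69.1 TPM) and Trf (7.30 to 85.6 TPM), so their order is not fixed by these data.

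**Figure D4:**
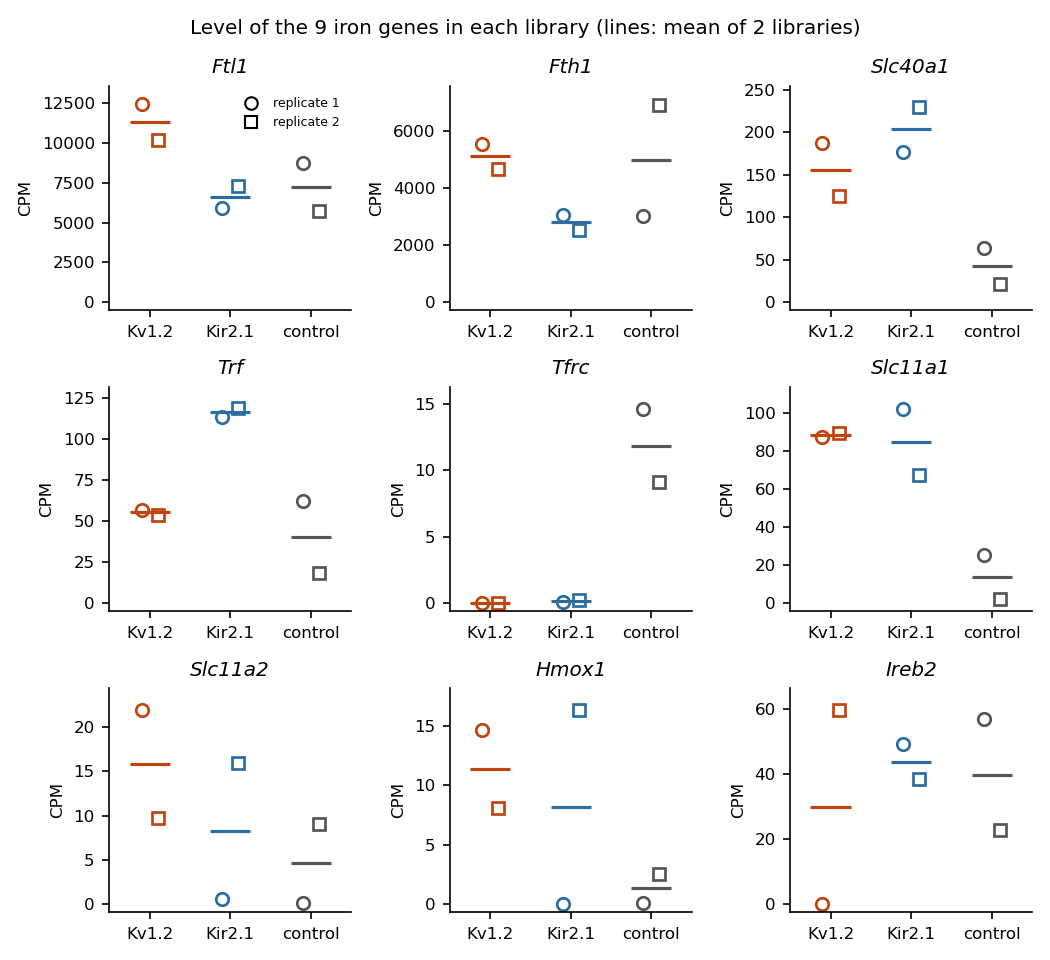
CPM of each of the 9 iron genes in the Kv1.2, Kir2.1 and control libraries (circles are replicate 1, squares replicate 2, lines the mean of 2 libraries; each panel has its own linear axis). Slc40a1 and Slc11a1 are higher and Tfrc lower in all 4 channel libraries than in both control libraries, and Slc11a2, Hmox1 and Ireb2 differ widely between replicates.

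Across the 4 comparisons no iron gene reached an adjusted p under 0.05 in edgeR's quasi-likelihood test. The 3 comparisons with control share the same control libraries and are not independent. For Kv1.2 against control, 0 of 9 genes were called (0% of all 12275 genes) and 2, Slc40a1 and Tfrc, had p under 0.05 before adjustment (12.0% of all genes). In that comparison 5 genes were higher with no overlap (19.5% of all genes), namely Ftl1, Slc40a1, Slc11a1, Slc11a2 and Hmox1, and 1, Tfrc, was lower (24.7% of all genes). For Kir2.1 against control, 0 were called (0% of all genes) and 1, Slc40a1, had p under 0.05 before adjustment (9.40% of all genes). Here 3 were higher with no overlap (19.9% of all genes), namely Slc40a1, Slc11a1 and Trf, and Tfrc was lower (22.5% of all genes).

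With both channel groups set together against control, 0 of 9 iron genes were called by edgeR (0.0244% of all genes) and 2, Slc40a1 and Tfrc, had p under 0.05 before adjustment (13.4% of all genes). Slc40a1 had a log2 fold change of 2.07 (SE 0.74, unadjusted p = 0.0259, adjusted p = 0.291 by edgeR) and Slc11a1 of 2.64 (SE 1.19, adjusted p = 0.401 by edgeR). These 2 were higher in all 4 channel libraries than in both control libraries (8.53% of all genes), and Tfrc was lower (13.7% of all genes). For Kir2.1 against Kv1.2, 0 were called (0% of all genes) and 0 had p under 0.05 before adjustment (6.08% of all genes). In that pair Trf and Tfrc were higher with no overlap (21.4% of all genes), Tfrc on 4 counts alone, and Ftl1 and Fth1 were lower (16.8% of all genes). By other tools, DESeq2 and edgeR's likelihood ratio test each called 1 iron gene, Tfrc, in Kv1.2 (12.0% and 5.89% of all genes given an adjusted p) and in the channel groups together (11.1% and 8.94%). They called 0 iron genes in Kir2.1 against control (9.54% and 1.83% of all genes given an adjusted p) and 0 in Kir2.1 against Kv1.2 (6.36% and 0.554%). DESeq2 gave an adjusted p to 10133 to 11085 genes by comparison, and the likelihood ratio test to 12275 genes. The median log2 fold change of the 9 genes was 0.63 for Kv1.2, 0.82 for Kir2.1, 0.99 for both together and -0.05 for Kir2.1 against Kv1.2, beside -0.12, 0.04, -0.19 and 0.13 over all genes tested. Since Tfrc could pass the minimum only by being high in control, these counts and medians are a description.

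**Figure D5:**
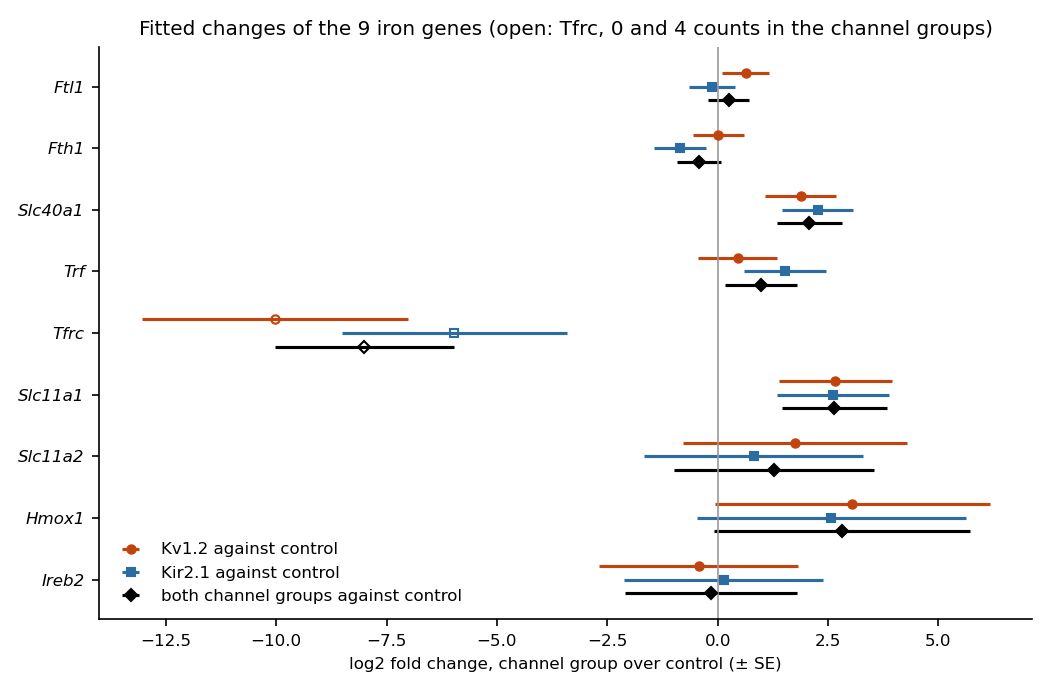
Log2 fold changes of the 9 iron genes (± SE) for Kv1.2, Kir2.1 and both channel groups together against control. Slc40a1 and Slc11a1 lie to the right in all 3 comparisons with adjusted p of 0.291 or more, and the fitted values of Tfrc (open symbols) rest on 0 and 4 counts in the channel groups.

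The wider iron machinery showed no common direction. Of 71 further iron genes, listed by role, 50 were tested, and 25 lay above and 25 below 0 for Kv1.2, 26 and 24 for Kir2.1, and 21 and 29 for both together. By edgeR's quasi-likelihood test 0 passed in any comparison. Over all genes, 12.0% (Kv1.2), 9.40% (Kir2.1), 13.4% (both together) and 6.08% (Kir2.1 against Kv1.2) had p under 0.05 before adjustment. Of the 50 iron genes there were 1 higher (Cp) and 1 lower (Bmp6) for Kv1.2, 2 lower for Kir2.1 (Bola2 and Alad), 2 lower for both together (Bola2 and Bmp6) and 1 higher for Kir2.1 against Kv1.2 (Slc39a14). DESeq2 called 1 for Kv1.2 (Cp), 2 for Kir2.1 (Cp and Alad), 1 for both together (Cp) and 1 for Kir2.1 against Kv1.2 (Alad), and edgeR's likelihood ratio test called 0 in each. DESeq2 called 12.0%, 9.54%, 11.1% and 6.36% of all genes to which it gave an adjusted p in these comparisons, in the same order. Apart from Bola2, these genes were named after their values were seen. Cp, the ferroxidase ceruloplasmin that works beside ferroportin, had 52.7 and 6.97 CPM in Kv1.2 and 34.4 and 1.35 CPM in Kir2.1, against 0.40 and 0.47 CPM in control. It was higher in all 4 channel libraries (8.53% of all genes). Both control libraries were under 1 CPM, so Cp passed the count minimum only through the channel libraries, where it is high. The replicates of each channel group lay further apart than the control libraries did. Bmp6, a ligand known to induce hepcidin in the liver, had 0.080 and 0.081 CPM in Kv1.2 and 2.33 and 0.81 CPM in Kir2.1, against 3.76 and 4.09 CPM in control. Alad, an enzyme of heme synthesis, had 20.8 and 0.24 CPM in Kv1.2 and 0.0895 and 0.0901 CPM in Kir2.1, against 18.7 and 11.1 CPM in control, so its difference between Kir2.1 and Kv1.2 rests on Kv1.2 replicate 1. Slc39a14 had 0 and 0 CPM in Kv1.2 and 5.46 and 3.87 CPM in Kir2.1, against 0.0988 and 0.351 CPM in control. It thus passed the count minimum only through the Kir2.1 libraries, where it is high.

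The role lists are given with their most abundant members. Of 6 tested uptake genes, 2 lay above 0 for Kv1.2 and 5 for Kir2.1. Lrp1, a receptor that takes up heme bound to hemopexin, had 88.7 and 32.0 CPM in Kv1.2 and 105 and 146 CPM in Kir2.1, against 90.5 and 36.7 CPM in control. Mcoln1, the lysosomal channel mucolipin 1, ranged from 0.54 to 124 CPM over the channel libraries, with 23.2 and 3.04 CPM in control between these ends. Of 5 tested storage and ferritinophagy genes, 4 lay above 0 for Kv1.2 and 2 for Kir2.1. Bola2, a partner of Glrx3 in iron-sulfur cluster handling, had 165 and 141 CPM in Kv1.2 and 81.6 and 103 CPM in Kir2.1, against 185 and 553 CPM in control, with an unadjusted p of 0.0271 and an adjusted p of 0.521 by edgeR for Kir2.1. Glrx3 had 172 and 155 CPM in Kv1.2 and 166 and 112 CPM in Kir2.1, against 81.8 and 109 CPM in control. All 4 channel libraries thus lay above control (8.53% of all genes). Of 3 tested export genes, 1 lay above 0 in each comparison with control, and App, whose product binds ferroportin at the surface, had 73.4 and 48.0 CPM in Kv1.2 and 33.3 and 87.9 CPM in Kir2.1, against 146 and 85.5 CPM in control. Abcg2, a porphyrin and drug exporter, split the replicates of every group (73.6 and 0.32 CPM in Kv1.2, 61.1 and 0 in Kir2.1, against 71.8 and 3.39 in control).

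Of 12 tested genes of heme turnover, 8 lay above 0 in the Kv1.2 comparison and 7 in that of Kir2.1. The constitutive heme oxygenase Hmox2 had 236 and 183 CPM in Kv1.2 and 292 and 199 CPM in Kir2.1, against 235 and 44.1 CPM in control. The biliverdin reductase Blvra had 115 and 119 CPM in Kv1.2 and 143 and 121 CPM in Kir2.1, against 295 and 96.6 CPM in control, and in both genes the control libraries spanned most of the range. Of 14 genes of mitochondrial iron and iron-sulfur clusters, all tested, 11 lay below 0 for Kv1.2 and 10 for Kir2.1, with none at an unadjusted p under 0.05. The scaffold Iscu had 318 and 436 CPM in Kv1.2 and 609 and 535 CPM in Kir2.1, against 618 and 550 CPM in control. Isca2, an assembly factor, had 138 and 166 CPM in Kv1.2 and 69.7 and 199 CPM in Kir2.1, against 191 and 204 CPM in control. Of 10 tested regulators, 7 lay above 0 in each comparison with control. Nfe2l2, which encodes NRF2, had 271 and 165 CPM in Kv1.2 and 309.8 and 152 CPM in Kir2.1, against 329 and 22.1 CPM in control, and Hif1a, the oxygen-sensitive factor, had 134 and 91.5 CPM in Kv1.2 and 148 and 76.1 CPM in Kir2.1, against 131 and 20.0 CPM in control. For both factors control replicate 2 was the lowest library, while control replicate 1 was above all 4 channel libraries for Nfe2l2 and above 2 of them for Hif1a.

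For the 4 iron genes of highest mean CPM (Ftl1, Fth1, Slc40a1 and Trf), the 2 genes of most similar profile were sought by Pearson's r of log2 CPM over the 6 libraries, among 7314 genes averaging at least 10 CPM. Ftl1 was followed by Gm10252 (r = 0.999), which overlaps it, and by Ube2l3, a ubiquitin-conjugating enzyme (r = 0.977). For Fth1 these were Phactr1 and Art3 (r = 0.983 and 0.981), and for Slc40a1 they were Acp2, a lysosomal acid phosphatase, and C130089K02Rik (r = 0.994 and 0.993). Trf was matched by the zinc-finger genes Zfp748 and Zfp36l2 (r = 0.997 and 0.993). With 6 libraries that differ in depth and cell content and so many genes searched, these values describe the libraries only.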

How the data were processed

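RNA of sorted Twitch-2B-positive cells was measured in 6 libraries, grouped by their labels. The submitters' processing notes name STAR 2.7.0f as the aligner (to GRCm38, mm10), SAMtools 1.9 as the filter, Subread 1.6.4 as the read counter and, for the tests, edgeR 3.24.3 under R 3.5.2. As their output the authors deposited raw counts, without normalization, and these were the input of all tests. The deposited TPM, normalized by the authors to gene length and library for 12335 genes, served only for levels between genes and for one ratio. Tables of scaled counts and FPKM were not used, nor were tables of the authors' comparisons, which list per gene the fold change (log2), the p-value and its FDR. The strand setting of the counting is unknown.

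A minimum of 1 CPM in 2 or more libraries was set, and the genes past it were fitted over all 6 libraries in edgeR 4.0.16 (R 4.3.3; glmQLFit and glmQLFTest, TMM scaling), and 4 contrasts were tested, adjusted by the Benjamini-Hochberg method over all genes at 0.05. The SE is the log2 fold change divided by the square root of F. The steps were tested on simulated data. Alternatives were DESeq2 1.42.0, the likelihood ratio test, scaling by RLE or by library size only, filterByExpr or no count minimum, only the compared groups, a replicate block, each library left out, ferritin pseudogenes added and, chosen after seeing the data, Gm10252 added to Ftl1. Depth was 8871595 to 13632970 counts, intervals and floors (3 counts) covering counting error only. The 9 genes and all lists were chosen with earlier results of these data known. Named were the 9 genes, the 2 tested genes of highest mean CPM in each iron role list and in the NRF2 list, ferritin pseudogenes, the 2 genes most like each of the 4 iron genes of highest mean CPM and the 3 most abundant markers of microglia and of neurons. Others were named after their values were seen, and not every gene that the rule names is reported here.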

Additional observations from a re-analysis of the deposited data

How the results depend on the processing

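The 9 iron genes gave 0 calls in each comparison, and again under each alternative except those with another test. With DESeq2 there was 1 call for Kv1.2 against control and 1 for both channel groups against control, and with the likelihood ratio test again 1 and 1. The call was Tfrc each time, and the cause was not tested. Of 36 log2 fold changes, 20 kept their direction under every alternative that gave a value, among them all of Slc40a1 and those of Slc11a1 against control. Those of Tfrc are also among them, but Tfrc passed the count minimum only through the control libraries. Its kept direction against control is therefore no check of the change. In Kir2.1 against Kv1.2 its direction rests on 4 counts. Fth1 in Kv1.2 against control was -0.0890 with DESeq2, -0.0890 with RLE scaling and -0.0682 with only the compared groups. Ftl1 in Kir2.1 against control was 0.0477 with library size only and 0.0210 with no count minimum. Slc11a1 in Kir2.1 against Kv1.2 was 0.0016 with DESeq2, 0.0016 with RLE scaling and 0.24 with library size only. The cause was not tested. With 1 library left out, the lone partner being assumed to vary like the other groups, the changes that turned round ranged as follows. For Kv1.2 against control, Fth1 ranged from -0.57 to 0.66, Ireb2 from -11.74 to 0.57 and Trf from -0.26 to 1.47. For Kir2.1 against control, Ftl1 ranged from -0.47 to 0.10, Slc11a2 from -3.11 to 5.22, Hmox1 from -6.91 to 6.14 and Ireb2 from -0.44 to 0.84. For both channel groups, Ftl1 ranged from -0.0947 to 0.48, Fth1 from -0.997 to 0.24, Slc11a2 from -0.68 to 5.69, Hmox1 from -1.93 to 6.37 and Ireb2 from -5.81 to 0.56. For Kir2.1 against Kv1.2, Slc11a1 ranged from -0.38 to 0.19, Slc11a2 from -4.86 to 0.0285, Hmox1 from -9.96 to 0.54 and Ireb2 from -0.44 to 11.87. The log2 ratio of Fth1 to Ftl1 differed by -1.47 to 0.33 when 1 library was left out. Without either control library, and in Kir2.1 against Kv1.2 with only the compared groups, Tfrc fell under the count minimum and gave no value. The replicate block gave 0 calls in all 4 comparisons, and the changes of Tfrc and Slc40a1 over both channel groups were then -8.06 and 2.21. Numbers shared between groups did not pair the libraries, since deviations from the group means correlated at 0.0130, -0.0402 and -0.00281, and the labels give no shared batch. A count of 0 allows a level of up to 3 counts, or 0.239 to 0.351 CPM over the 6 libraries.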

Other observations

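Genes of the glutathione and thioredoxin systems, many of them targets of NRF2 and tied to iron through the control of lipid peroxidation, lay below 0 in most cases. Of 15 listed, 11 were tested, and 10 of them were below 0 for Kv1.2 against control and 9 for Kir2.1 against control, with medians of -0.75 and -1.60, beside -0.12 and 0.04 over all genes tested, of which 47.5% and 50.8% lay above 0. By edgeR's quasi-likelihood test 0 passed at an adjusted p under 0.05 in any comparison, and 0 (Kv1.2) and 2 (Kir2.1) had p under 0.05 before adjustment, with 4 for both channel groups together and 1 for Kir2.1 against Kv1.2, beside 12.0%, 9.40%, 13.4% and 6.08% of all genes in the same order. DESeq2 called 1 for Kv1.2 (Me1), 2 for Kir2.1 (Me1 and Txn1), 2 for both together (Me1 and Slc7a11) and 0 for Kir2.1 against Kv1.2 (12.0%, 9.54%, 11.1% and 6.36% of all genes to which it gave an adjusted p). The likelihood ratio test of edgeR called 1 for both together (Me1, with 8.94% of all genes called) and 0 elsewhere. Me1 and Slc7a11 were named after their values were seen. Me1 had 0.16 and 0.32 CPM in Kv1.2 and 0.72 and 0 CPM in Kir2.1, against 47.4 and 12.4 CPM in control, and so passed the count minimum only through the control libraries. Slc7a11 had 0.48 and 0.32 CPM in Kv1.2 and 1.07 and 0.18 CPM in Kir2.1, against 0.30 and 39.4 CPM in control, so its difference rests on control replicate 2. Gclc, likewise named after its values were seen, went the other way. It had 22.2 and 58.2 CPM in Kv1.2 and 37.0 and 33.5 CPM in Kir2.1, against 6.82 and 20.2 CPM in control. All 4 channel libraries thus lay above control for Gclc (8.53% of all genes). Gpx4, the peroxidase that reduces lipid hydroperoxides, had 264 and 410.3 CPM in the Kv1.2 libraries and 239 and 317 CPM in the Kir2.1 libraries, against 558 and 1123 CPM in the control libraries. All 4 channel libraries lay below both control libraries (13.7% of all genes). The log2 fold changes were -1.34 (SE 0.62, edgeR adjusted p = 0.435) for Kv1.2 and -1.61 (SE 0.62, edgeR adjusted p = 0.521) for Kir2.1. Prdx1, an abundant peroxiredoxin, had 2205 and 2423 CPM in Kv1.2 and 943 and 1208 CPM in Kir2.1, against 1611 and 3066 CPM in control. Txn1 (thioredoxin), named after its values were seen, had 249.7 and 249.3 CPM in Kv1.2 and 75.7 and 51.6 CPM in Kir2.1, against 251 and 462 CPM in control. It was lower with no overlap in Kir2.1 than in control (22.5% of all genes) and than in Kv1.2 (16.8% of all genes). Its log2 fold change in Kir2.1 against control was -2.50 (SE 0.65, edgeR adjusted p = 0.521). Mitochondrially encoded RNA took 1.48% to 1.89% of the counts in the channel libraries, against 10.9% and 22.9% in the control libraries. Neuronal markers summed to 47.3 to 148 CPM in the channel libraries, against 1009.7 and 2468 CPM in control, and astrocyte markers to 229.7 to 364 CPM, against 950.3 and 3114 CPM. Their part in these levels was not tested.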
